A study of Homo sapiens with 4 samples.

Results

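Glycolysis and the transcriptional response to low oxygen were followed in LCC9 cells. LCC9 is a human breast cancer line with resistance to tamoxifen, and its labels give wild-type estrogen receptor alpha as present. A set of 38 gene symbols was looked up by name in tables of 23605 symbols, and 37 were found. The tables list pyruvate kinase M under PKM and have no line for its older symbol PKM2. Cells were treated for 24 h with A7, which the labels describe as a mimetic of the tumour suppressor BRCA1 (2 libraries), or with the vehicle DMSO (2 libraries). The sample titles give A7 the number NSC31303, whereas the series title names NSC35446.HCl, and which compound was used was not settled here. Both groups grew in medium free of phenol red with 5% charcoal-stripped serum, which is low in estrogen. The labels give neither the dose of A7 nor the oxygen level, and do not say whether the 2 libraries of a group came from separate cultures. The p-values below therefore measure only the spread between these libraries, which may be technical.

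Glycolysis splits glucose into pyruvate in the cytosol. Hexokinase traps glucose in the cell, phosphofructokinase commits it to the pathway, pyruvate kinase makes pyruvate, and lactate dehydrogenase turns pyruvate into lactate, which monocarboxylate transporters carry out. Many of these genes are induced when oxygen is scarce. Prolyl hydroxylases of the EGLN family mark HIF1A, the oxygen-regulated subunit of hypoxia-inducible factor, for degradation while oxygen is present. When they slow down, HIF1A accumulates as a protein, pairs with ARNT and switches on genes for glycolysis, blood vessel growth, collagen maturation and mitochondrial turnover.

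Values are FPKM (fragments scaled by transcript length and by the library's mapped fragments) divided by a factor per library, called scaled FPKM here. Summed FPKM were 1189056 and 1192830 in the A7 libraries, and 1324082 and 1473540 in the vehicle libraries. Depth, estimated from the steps between low values, was about 4800000 and 3600000 fragments with A7, against 2600000 and 2500000 with vehicle. Epithelial markers such as KRT8, KRT18, EPCAM and GATA3 were present in every library, and leukocyte markers were at 0 except for LYZ. Endothelial markers summed to at most 0.0961 scaled FPKM in any library. The 5 basal or myoepithelial markers summed to 12.3 and 12.6 with A7, against 14.3 and 16.2 with vehicle. KRT5 and KRT14 of this list were at 0 in all 4 libraries, and ACTA2 made up most of the sum, at 11.1 and 11.3 with A7, against 13.7 and 14.6 with vehicle. Fibroblast markers stood apart in 1 library. Their sum over 6 genes was 11.0 and 0.963 scaled FPKM in A7 replicates 1 and 2, against 0.416 and 0.421 with vehicle. Most of that came from DCN, at 8.40 in A7 replicate 1 and 0.230 in A7 replicate 2, against 0 in both vehicle libraries, while PDGFRB was at 0 throughout. The part of that library's markers in the results below was not tested, and values without it are given beside some of them. Without it, of the tested genes PFKM turned to a log2 difference of 0.28, P4HA2 to 0.28, KDM3A to -0.17 and PDK3 to -0.041, while PFKL stood at -0.33 and PFKFB3 at -0.35.

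Of the 37 genes, 29 reached the minimum for testing, a mean FPKM of 1, and the other 8 are given by their values only. None of the 29 differed between A7 and vehicle at a limma adjusted p under 0.05 over all 8952 tested genes, of which 0.0112% were called higher and 0.0112% lower. At an unadjusted limma p under 0.05, 1 gene was higher (ANKRD37, which was tested only through its level with A7) and 2 were lower (ALDOC and LDHA), where 2.21% and 3.55% of all tested genes passed in these directions, 5.76% in all. The pair of groups did not overlap for 4 higher and 7 lower genes of the 29, against 18.3% and 18.6% of all tested genes. The lower share varied with level. It was 348 of the 717 tested genes with a mean FPKM of at least 100, and 1314 of the 8235 below 100. With 2 libraries a group, exact two-sided permutation cannot give a p below 0.333, so it was not used. In such bulk RNA, a change in the make-up of the cells and a change in RNA per cell cannot be told apart. The plot of differences with their intervals shows the 29 genes by role.

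**Figure D1:**
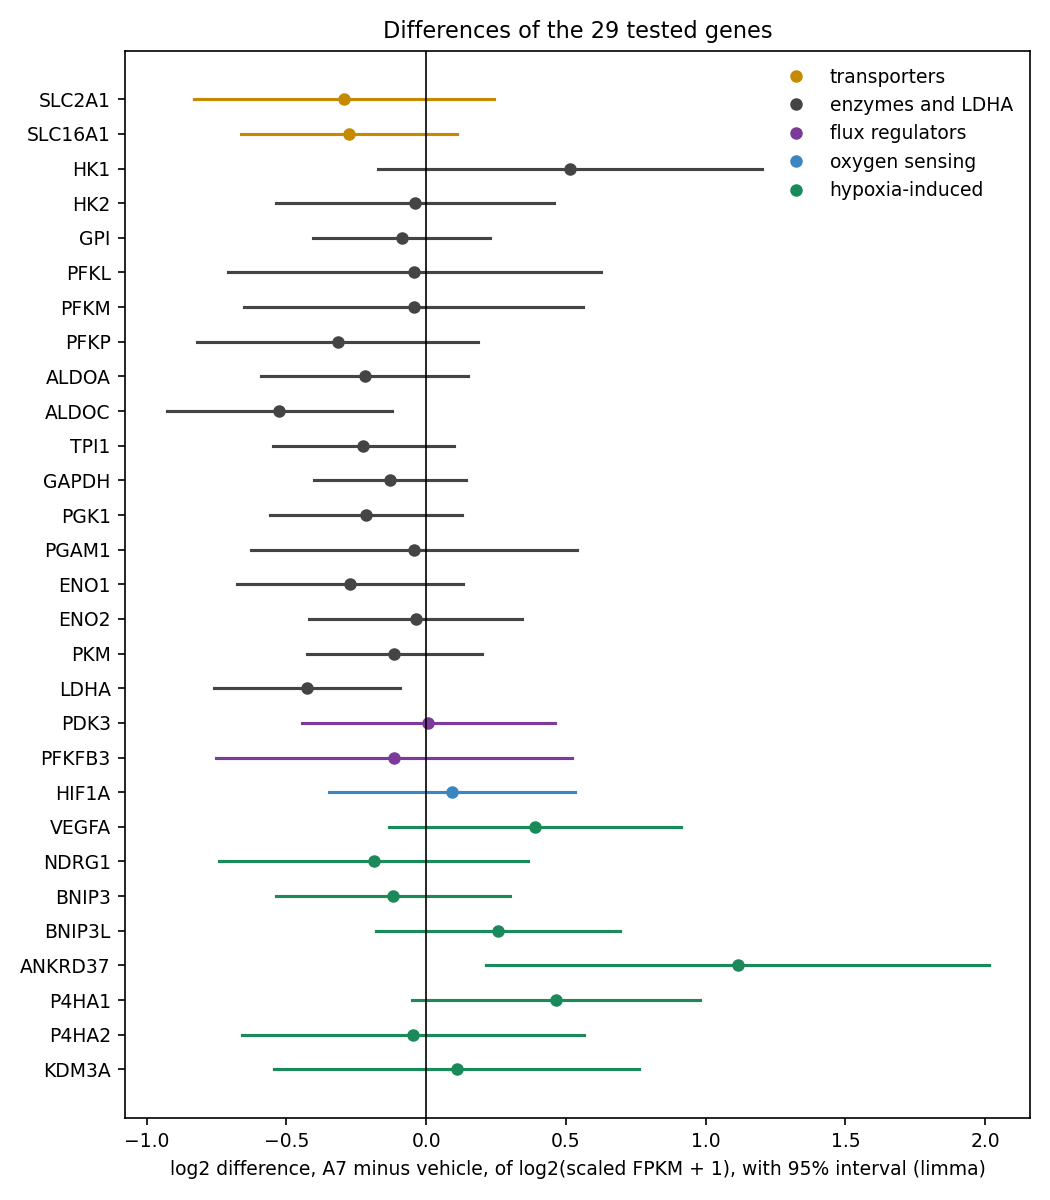
Log2 differences (A7 minus vehicle, of log2 scaled FPKM + 1, x axis) of the 29 tested genes, with 95% intervals from limma. Points of the enzymes lie left of 0 except HK1 at 0.51. With TPM scaling 12 of the 15 lie right of 0, as do 7012 of all 8952 tested genes. Points of the hypoxia-induced genes range from -0.19 (NDRG1) to 1.11 (ANKRD37). The intervals of 3 genes leave out 0, among them ANKRD37, which was tested only through its level with A7.

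The enzymes of glycolysis differed in level far more between steps than between treatments. Of 15 tested enzymes 14 had a lower mean with A7, beside 50.3% lower and 49.7% higher among all tested genes. The count went to 3 with FPKM rescaled to TPM, where 21.7% of all tested genes were lower. It went to 9 after quantile normalization, where 48.2% of all tested genes were lower. Without either change the median log2 difference of the enzymes was -0.11, against -0.0019 over all tested genes. With TPM it was 0.096, where the median of all genes itself moved to 0.17, so relative to all genes it stayed negative at -0.079. Abundance moved with this direction. At a mean FPKM of at least 100, 83.5% of all tested genes were lower with A7 by their means, and so were all 7 enzymes in that range. Below 100 it was 47.4% of all tested genes and 7 of the 8 enzymes, whose median log2 difference was -0.043. The part of abundance in the enzymes' direction was not tested.

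**Figure D2:**
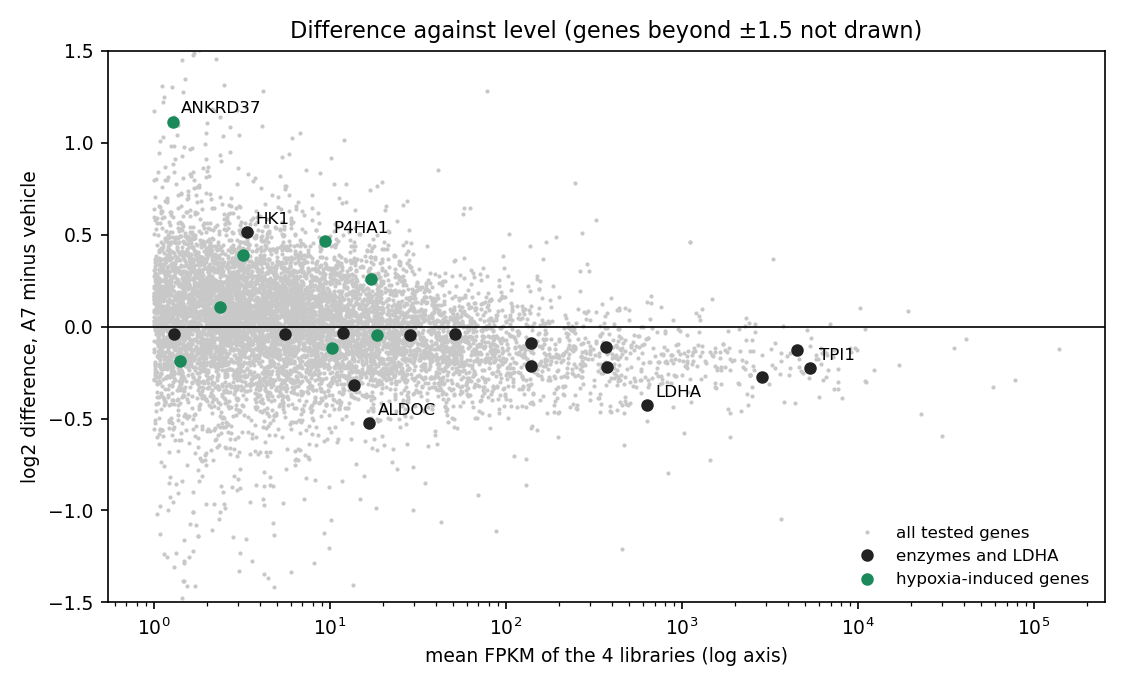
Log2 difference (A7 minus vehicle, y axis) against the mean FPKM of the 4 libraries (x axis, log scale) for all tested genes in grey, the enzymes with LDHA in black and the hypoxia-induced genes in green. Abundant genes as a whole lie below 0, and the enzymes of 100 FPKM or more lie with them, LDHA lowest at -0.43. With TPM scaling the median of the enzymes without LDHA is 0.096, against 0.17 over all tested genes.

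Summed over isozymes, triose phosphate isomerase (mean of 4 libraries 5329 scaled FPKM), GAPDH (4505) and enolase (2841) were the most abundant steps. The library ranges of the first pair overlapped, but the isomerase lay above GAPDH within every library. Together TPI1, GAPDH and ENO1 held 87.9% and 87.9% of the summed level of the 11 steps from hexokinase to lactate dehydrogenase in A7 libraries, and 87.0% and 87.9% in vehicle libraries. Lactate dehydrogenase followed at 633, then aldolase at 388 and pyruvate kinase at 368, whose library ranges overlapped. Phosphoglycerate kinase (139) and GPI (138) overlapped as well, as did phosphoglycerate mutase (51.1) and phosphofructokinase (43.4). Hexokinase, the first step, was the lowest at 8.95. The sum over the 11 steps was 12710 and 14093 with A7, and 14638 and 16335 with vehicle, so both A7 libraries lay below both vehicle libraries on this scaling. Summed FPKM were lower in the A7 libraries as well, and as a share of them the 37 genes held 1.067% and 1.214% with A7, against 1.116% and 1.131% with vehicle, with overlap.

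**Figure D3:**
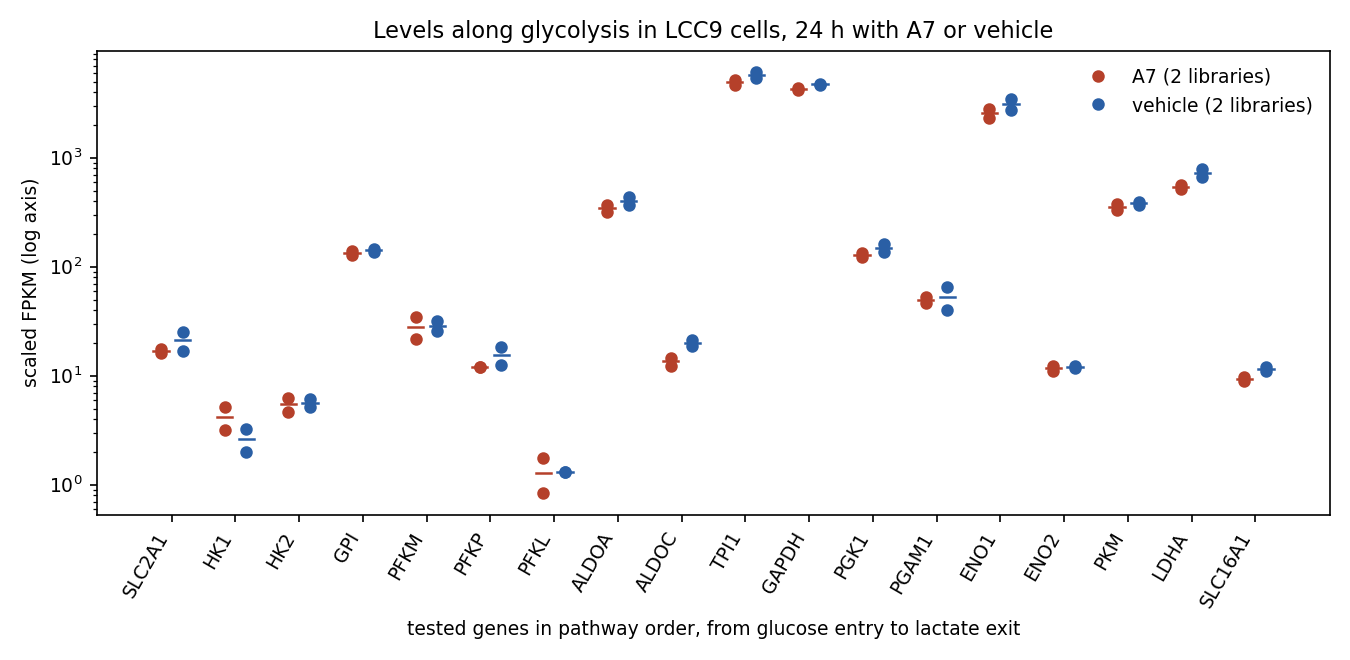
Scaled FPKM (y axis, log scale) of the tested transporters and enzymes in pathway order, with 2 A7 libraries (red, left) and 2 vehicle libraries (blue, right) per gene and a bar at each mean. The levels span from PFKL near 1.3 to TPI1 with a mean of 5329, and for most genes the 2 groups lie close together beside that range.

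Glucose entry was low to moderate. SLC2A1, the main glucose carrier of proliferating cells, had 17.4 and 16.1 scaled FPKM with A7, against 25.4 and 16.8 with vehicle. Vehicle replicate 1 alone was high, and vehicle replicate 2 lay between the A7 libraries (log2 difference -0.29, SE 0.22, 95% interval -0.83 to 0.24). HK1, the hexokinase found in most tissues, had 5.15 and 3.21 with A7, against 3.23 and 2.00 with vehicle. HK2, the inducible hexokinase bound to mitochondria, had 6.28 and 4.69 with A7, against 6.10 and 5.15 with vehicle. Of the 15 tested enzymes HK1 alone had a higher mean with A7, by 0.51 on the log2 scale (SE 0.28) with a limma adjusted p of 0.806. Its A7 replicate 2 lay just under vehicle replicate 1. HK1 also was higher in A7 replicate 1, the library with the fibroblast markers, and without that library its log2 difference was 0.24. The share of HK1 in the hexokinase level was 45.0% and 40.7% with A7, and 34.6% and 27.9% with vehicle, so the shares did not overlap although the sums did. No test was made of these shares.

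GPI, which converts glucose 6-phosphate to fructose 6-phosphate, had 127 and 140 scaled FPKM with A7, against 137 and 147 with vehicle, with overlap. The phosphofructokinase step was carried mainly by PFKM, the muscle-type subunit, at 21.8 and 34.7 with A7 and 25.6 and 31.5 with vehicle. PFKP, the platelet-type subunit, had 11.9 and 12.1 with A7, against 18.2 and 12.6 with vehicle. The groups of PFKP did not overlap, but the gap between A7 and vehicle replicate 2 was small (log2 difference -0.32, SE 0.20). PFKL, the liver-type subunit, was near the detection limit, at 1.74 and 0.832 with A7 and 1.30 and 1.32 with vehicle. It rested on about 29 fragments with A7 and 18 with vehicle. PFKM made up 61.4% and 72.9% of the step with A7, against 56.8% and 69.3% with vehicle, and replicate 2 had the larger share in each group.

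**Figure D4:**
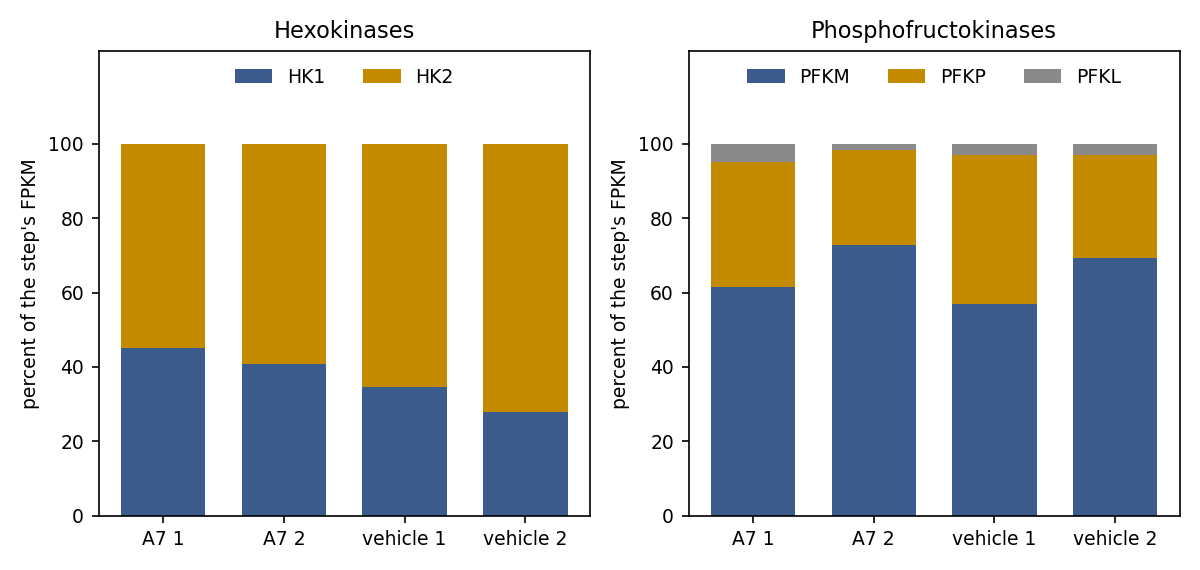
Share of each isozyme in the FPKM of its step (y axis, percent) in each library, for hexokinases (left) and phosphofructokinases (right). HK1 takes 45.0% and 40.7% in the A7 libraries, above its 34.6% and 27.9% in the vehicle libraries, and PFKM leads its step in every library.

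ALDOC, the aldolase known from brain and a target of hypoxia-inducible factor, had the largest log2 difference among the enzymes with a pseudocount of 1. By the ratio of means HK1 differed more (1.598-fold higher with A7, against 1.47-fold lower for ALDOC), as it did with TPM (0.64, against -0.31) and with smaller pseudocounts. It had 14.7 and 12.4 scaled FPKM with A7, against 18.7 and 21.1 with vehicle. Both A7 libraries lay below both vehicle libraries, and the means of 13.5 ± 1.6 and 19.9 ± 1.7 (SD, n = 2 each) gave a log2 difference of -0.53 (SE 0.16, 95% interval -0.93 to -0.12, limma adjusted p = 0.806). Of the 2563 tested genes with a mean FPKM of 10 to 100, 2.22% had a log2 difference as low as that of ALDOC or lower. ALDOA, the aldolase of most tissues, held at least 94.6% of the step's level in every library and had 315 and 372 with A7, against 433 and 367 with vehicle, with overlap.

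The later steps of the pathway had lower means with A7 at every step, by small amounts. TPI1, which interconverts the triose phosphates, had 4644 and 5182 scaled FPKM with A7, against 5355 and 6135 with vehicle. GAPDH, which makes the first NADH of the pathway, had 4216 and 4392 with A7, against 4631 and 4781 with vehicle. PGK1, which yields the first ATP, had 123 and 133 with A7, against 137 and 161 with vehicle. At a mean FPKM of at least 100, 348 of all 717 tested genes were lower with A7 without overlap. So were these 3 genes, with log2 differences of -0.22, -0.13 and -0.21. With FPKM rescaled to TPM all 3 turned slightly positive, as did PGAM1, ENO2 and PKM, and GAPDH, PGAM1 and PKM did so after quantile normalization too. GAPDH is often used as a loading reference, and its mean here differed by -8.54% with A7 (limma adjusted p = 0.850).

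PGAM1, phosphoglycerate mutase, had 52.8 and 46.6 scaled FPKM with A7, against 64.6 and 40.4 with vehicle, and the vehicle libraries spanned the A7 libraries. Its near-identical copy PGAM4 had 11.4 and 10.3 with A7, against 10.4 and 9.03 with vehicle, so reads could be split between the pair. ENO1, the main enolase, had 2311 and 2809 with A7, against 2756 and 3439 with vehicle, with overlap and a log2 difference of -0.27 (SE 0.17). ENO2, the enolase known from neurons, stood at 12.4 and 11.1 with A7, against 11.8 and 12.3 with vehicle. PKM, pyruvate kinase M, had 332 and 376 with A7, against 371 and 394 with vehicle, with overlap. The tables do not separate its splice forms.

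LDHA, the lactate dehydrogenase subunit induced by low oxygen, had the largest difference among the abundant genes of the pathway. It had 514 and 564 scaled FPKM with A7, against 669 and 784 with vehicle. Both A7 libraries lay below both vehicle libraries, with means of 539 ± 35 and 727 ± 81 (SD, n = 2 each), a ratio of 0.741. On the log2 scale this was -0.43 (SE 0.14, 95% interval -0.76 to -0.095), with a limma adjusted p of 0.806. It kept its sign under all 12 alternatives, between -0.545 and -0.203. Of the 548 tested genes with a mean FPKM of 100 to 1000, 6.75% had a log2 difference as low or lower. LDHB, the subunit that favours the reverse reaction, was nearly absent, at 1.13 and 0 with A7 and 0.342 and 0.349 with vehicle. That corresponds to about 6 and 0 fragments with A7, and 1 and 1 with vehicle. LDHA thus made up at least 99.8% of the step's level in every library.

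Lactate export followed the same pattern of 1 expressed and 1 nearly absent paralog. SLC16A1, the monocarboxylate transporter MCT1, had 8.90 and 9.73 scaled FPKM with A7, against 11.0 and 11.95 with vehicle. The groups did not overlap (log2 difference -0.28, SE 0.16). SLC16A3, the hypoxia-induced transporter MCT4, had 0.195 and 0.253 with A7, against 0 and 0.383 with vehicle, about 3 fragments in all.

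Regulators that steer the pathway were low. PFKFB3, which makes the allosteric activator of phosphofructokinase, had 1.72 and 0.972 scaled FPKM with A7, against 1.74 and 1.29 with vehicle. PFKFB4, its paralog, rested on 1 fragment in each group. PDK3, a kinase that shuts off pyruvate dehydrogenase, had 3.06 and 2.78 with A7, against 2.86 and 2.94 with vehicle. PDK1, the kinase of this family known best as a target of hypoxia-inducible factor, had 1.07 and 0.513 with A7, against 0.385 and 0.706 with vehicle, and was under the level needed for a test. In none of these 4 genes were the groups separated.

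The oxygen-sensing genes showed no difference beyond the spread. HIF1A had 6.71 and 6.46 scaled FPKM with A7, against 6.82 and 5.47 with vehicle (log2 difference 0.09, SE 0.18, 95% interval -0.35 to 0.53), and its sign turned without vehicle replicate 2. HIF1A is controlled mainly as a protein, which these data do not measure. EGLN1, the main oxygen-sensing prolyl hydroxylase, had 1.09 and 0.529 with A7, against 0.822 and 0.837 with vehicle. EGLN3, a hydroxylase that is itself induced by low oxygen, had 0.517 and 0.339 with A7, against 0.466 and 0.158 with vehicle. Neither reached the minimum for a test.

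None of the hypoxia-induced genes outside glycolysis passed the test, and their median difference was positive. Of 8 tested genes 5 had a higher mean with A7, beside 49.7% of all tested genes. With FPKM rescaled to TPM 7 of the 8 did, beside 7012 of all 8952 tested genes. Without that rescaling the groups did not overlap in 4, all higher, where 18.3% of all tested genes were higher without overlap. One of the 4, ANKRD37, was tested only through its level with A7. The median log2 difference of the 8 genes was 0.18, against -0.0019 over all tested genes. With TPM it was 0.35, or 0.18 relative to all genes. These medians include ANKRD37. Among the other 7 genes the middle value without TPM was that of KDM3A, at 0.11. VEGFA, NDRG1, ANKRD37, P4HA1 and KDM3A had a mean FPKM of 1 to 10. In that range 3293 of 5672 tested genes were higher with A7, 1272 of them without overlap, and the median was 0.053. BNIP3, BNIP3L and P4HA2 had 10 to 100, where 1036 of 2563 were higher, 340 of them without overlap, with a median of -0.050. The part of abundance in the direction of these genes was not tested. The other 2 of the 10 genes were hardly seen. CA9, carbonic anhydrase 9 and a classical marker of hypoxic tumour cells, was listed at 0 in all 4 libraries, and the peptide hormone gene ADM had 0.492 and 0 with A7, against 0 and 0.454 with vehicle.

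ANKRD37, a small ankyrin repeat gene known as a target of hypoxia-inducible factor, had the largest difference. It had 2.23 and 1.89 scaled FPKM with A7, against 0.990 and nearly 0 with vehicle. Both A7 libraries lay above both vehicle libraries. This gave 1.11 on the log2 scale (SE 0.37, 95% interval 0.22 to 2.01), with a limma adjusted p of 0.806. ANKRD37 reached the minimum for testing only through the A7 group (mean 2.06, against 0.495 with vehicle), so its interval and its unadjusted p depend on that filter and lend no support to a difference. It rested on about 20 fragments with A7 and 3 with vehicle. Per depth this gave a ratio of 4.05 with an exact 95% interval of 1.2 to 21.3. That interval covers counting error only, depends on the same filter and lends no support to a difference either. Without vehicle replicate 2 the log2 difference was 0.62, and without A7 replicate 1 the gene no longer reached the minimum level.

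P4HA1, the catalytic subunit of the prolyl hydroxylase that matures collagen, had 9.05 and 13.1 scaled FPKM with A7, against 7.31 and 7.91 with vehicle. Both A7 libraries lay above both vehicle libraries, with A7 replicate 2 the highest (log2 difference 0.47, SE 0.21, 95% interval -0.050 to 0.98, limma adjusted p = 0.806). Its paralog P4HA2 had 13.9 and 22.5 with A7, against 16.7 and 20.2 with vehicle, so the vehicle libraries lay between the A7 libraries. VEGFA, the growth factor of blood vessels, had 4.41 and 3.13 with A7, against 2.66 and 2.55 with vehicle. Without A7 replicate 1, the library with the fibroblast markers, the log2 difference of VEGFA was 0.20, beside 0.39 with it. That of P4HA1 was 0.71 without that library and 0.23 without A7 replicate 2.

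BNIP3L, a receptor that sends mitochondria to autophagy, had 17.5 and 19.6 scaled FPKM with A7, against 13.5 and 17.3 with vehicle. A7 replicate 1 lay only just above vehicle replicate 2 (log2 difference 0.26, SE 0.18). BNIP3, its paralog with the same role, had 10.3 and 9.15 with A7, against 9.74 and 11.6 with vehicle, with overlap. NDRG1, a stress-responsive gene of differentiation, had 1.41 and 1.08 with A7, against 1.72 and 1.39 with vehicle. KDM3A, a histone demethylase induced by low oxygen, had 3.21 and 1.85 with A7, against 2.58 and 1.88 with vehicle.

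**Figure D5:**
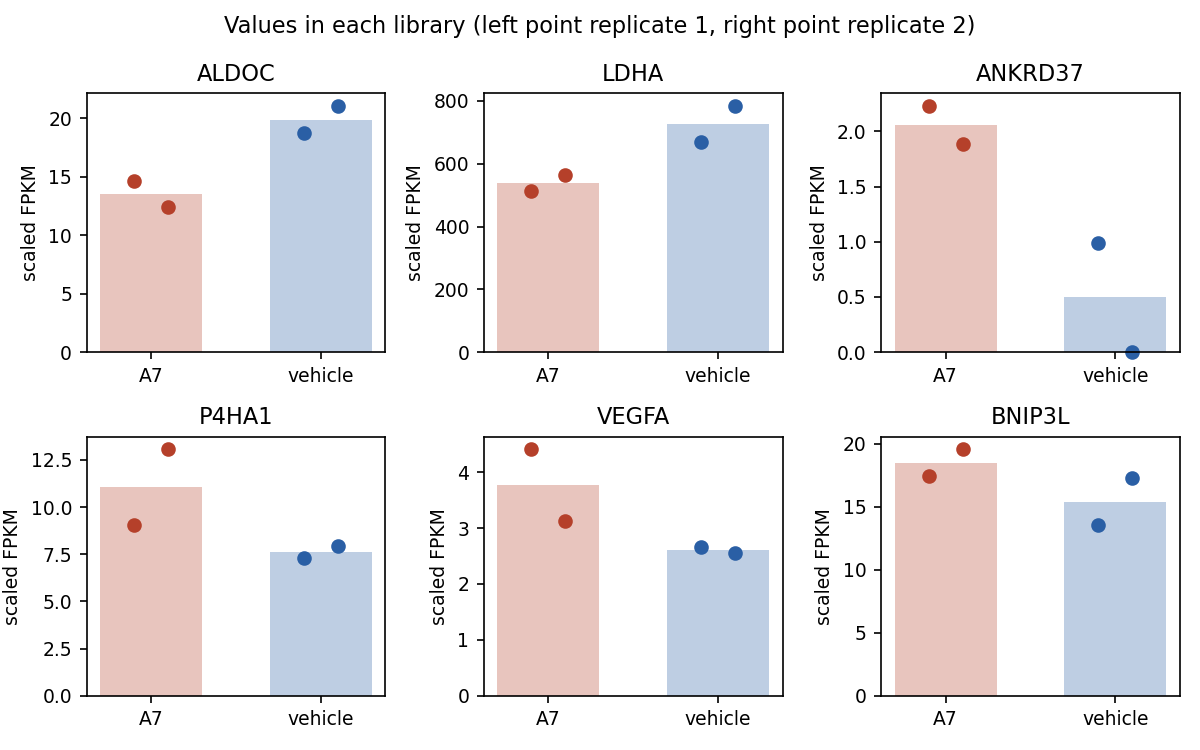
Scaled FPKM (y axis, starting at 0) in each A7 library (red, left) and vehicle library (blue, right) for 6 genes, with bars at the means of 2 libraries. ALDOC and LDHA lie lower in both A7 libraries, and ANKRD37, P4HA1, VEGFA and BNIP3L lie higher in both.

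Sequences from the start regions of the genes with the largest separated differences in each direction, LDHA and ALDOC (lower means with A7) and ANKRD37 and P4HA1 (higher means), are shown because hypoxia-inducible factor binds a short core in such regions. RefSeq (GRCh38.p14, a later build than the GRCh37 of the tables) held start regions for 33 of the 37 genes. The core was searched as ACGTG or GCGTG on both strands, so CACGT and CACGC are its other-strand forms, and a CACGTG counts as overlapping matches. The 30-base stretches below are written 5′ to 3′ on the gene's strand with matches in capitals.
LDHA, chr11:18394366-18394395, plus strand: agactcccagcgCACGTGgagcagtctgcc
LDHA, chr11:18394470-18394499, plus strand: gactcaCACGTGggttcccgCACGTccgcc
ALDOC, chr17:28577116-28577145, minus strand: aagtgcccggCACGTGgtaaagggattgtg
ALDOC, chr17:28576987-28577016, minus strand: cccgcctctgaggGCGTGgtcttgccccgg
ALDOC, chr17:28576915-28576944, minus strand: aggcCACGCccccggaggagtCACGTagct
ANKRD37, chr4:185396676-185396705, plus strand: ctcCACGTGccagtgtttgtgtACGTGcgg
P4HA1, chr10:73096936-73096965, minus strand: gtgtgatcgagctCACGTagcgagggctgc

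All 7 stretches lie within 250 bases before a RefSeq start, for LDHA the more upstream of its listed starts. Each also overlaps an exon of at least 1 GENCODE 29 transcript of its own gene, and those of ALDOC lie in the transcript AC005726.1 on the same strand as well. A match was found in 27 of the 33 genes (81.8%), against 47.4% of all 27305 genes in the table. Counted by start region, it was 59% of the 61 regions of these genes, against 43.2% of all 35116 regions. Many of the 37 genes are known as targets of this factor, and those with several starts had several chances of a match, so the higher share is a description only. The core stood before LDHA and ALDOC, whose means were lower with A7, as well as before ANKRD37 and P4HA1, whose means were higher. BNIP3 and PGK1 also held it.

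Neighbouring parts of sugar metabolism were counted in lists that do not hold the 37 genes, and none of their tested genes passed the limma adjusted threshold. The direction counts of the lists stand beside 50.3% lower and 49.7% higher among all tested genes. With FPKM rescaled to TPM, 21.7% of all tested genes were lower. The lower counts were then 2 (paralogs and partners), 2 (pyruvate), 3 (pentose phosphate and other branches), 2 (oxygen sensing) and 1 (further hypoxia targets). After quantile normalization they were 3, 5, 6, 3 and 7 in this order, beside 48.2% of all tested genes. Counts below are without these changes. Of 11 tested paralogs and partners of glycolysis 8 were higher and 3 lower with A7 by their means. The glucose carrier gene SLC2A10 had 1.30 and 1.56 scaled FPKM with A7, against 0.853 and 0.672 with vehicle, and was tested only through its level in the A7 group. BPGM, which makes 2,3-bisphosphoglycerate, had 4.19 and 5.47 with A7, against 7.34 and 5.79 with vehicle, again without overlap. PFKFB2 and BSG, the chaperone of lactate carriers, had overlapping groups, and BSG turned sign without vehicle replicate 1.

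Of 11 tested genes that bring pyruvate into mitochondria and oxidise it, 4 had a higher and 7 a lower mean. PDK2, another pyruvate dehydrogenase kinase, had 1.87 and 3.05 scaled FPKM with A7, against 0.741 and 0.755 with vehicle (log2 difference 0.96, SE 0.25). It reached the minimum for testing only through the A7 group, where it was high. PDP1, the phosphatase that opposes these kinases, had 3.51 and 2.75 with A7, against 2.40 and 2.62 with vehicle. PDHX, a structural subunit of the dehydrogenase, had 21.7 and 21.1 with A7, against 24.4 and 26.0 with vehicle. The pyruvate carrier gene MPC1 had overlapping groups, at 19.9 and 16.0 with A7 and 27.4 and 17.2 with vehicle, and turned sign without vehicle replicate 1.

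In the pentose phosphate pathway and other branches, 10 of 17 tested genes had a higher and 7 a lower mean. PGLS, the lactonase of the pentose phosphate pathway, had 0.410 and 0.509 scaled FPKM with A7, against 1.51 and 3.83 with vehicle (log2 difference -1.26, SE 0.35). It reached the minimum only through the vehicle group, where it was high. GPD1L, related to glycerol 3-phosphate dehydrogenase, had 5.39 and 7.21 with A7, against 3.96 and 4.12 with vehicle. PSPH, the last enzyme of serine synthesis, had 16.0 and 16.6 with A7, against 22.7 and 18.7 with vehicle. Glycogen phosphorylase PYGL overlapped.

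Among 10 further genes of oxygen sensing and of hypoxia-inducible factor, 6 had a higher and 4 a lower mean. TCEB1, which encodes elongin C of the VHL ubiquitin ligase, had 29.6 and 34.5 scaled FPKM with A7, against 37.5 and 44.1 with vehicle, without overlap. VHL itself had 31.3 and 25.7 with A7, against 26.3 and 21.3 with vehicle. The partner subunit ARNT had 14.4 and 16.98 with A7, against 11.8 and 15.2 with vehicle, and the hydroxylase EGLN2 had 0.921 and 1.54 with A7, against 2.30 and 1.46 with vehicle. The groups of these 3 genes overlapped.

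Of 20 further tested hypoxia targets 12 had a higher and 8 a lower mean, and their median log2 difference was 0.097. HMOX1, which degrades heme, had 2.76 and 2.52 with A7, against 2.37 and 1.03 with vehicle. The ubiquitin ligase adaptor WSB1 had 14.2 and 12.7 with A7, against 12.04 and 10.1 with vehicle. INSIG2, which restrains sterol synthesis, had 12.9 and 12.7 with A7, against 9.34 and 11.8 with vehicle. The groups of these 3 genes did not overlap, and none of them passed the limma test. Of the 20 genes, 5 were higher and 2 lower without overlap, against 18.3% and 18.6% of all tested genes.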

How the data were processed

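RNA of 4 LCC9 samples was made into cDNA with a SMARTer kit without a named strand-marking step, per the labels' protocols, so overlapping genes of opposite strand may share reads. The authors deposited 1 table of FPKM per library, per the file headers. The submitters' processing notes name CASAVA 1.8.2, TopHat, Cufflinks 2.2.1 and the build GRCh37 without saying what each was used for. The treatment of reads with several matches is not given in the sources used here.

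Lines with a whole number in place of a symbol (14 of 23619) were left out. Libraries were scaled by median-of-ratios factors. The 8952 genes whose mean FPKM reached 1 entered a limma fit (version 3.58.1, R 4.3.3, lmFit and eBayes with trend) on log2(scaled FPKM + 1), A7 minus vehicle, two-sided, with Benjamini-Hochberg adjustment over all of them. Fold changes on this scale understate changes of low genes. The fit had 2 residual and 3.89 prior degrees of freedom and was tested on simulated data.

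Depth was read from the steps between low values and from transcript lengths of GENCODE 29. Fragment numbers are the whole numbers nearest to these steps, and their intervals cover counting error only. Near-identical copies of the genes were searched with blastn 2.17.0 in GENCODE 29 transcripts (95% identity or more, covering 50% or more of the shorter transcript and no fewer than 300 bases). They were found for 11 of 37 genes, among them pseudogenes of GAPDH, LDHA, TPI1, PGK1, PGAM1, HK2 and BNIP3 and the antisense gene P4HA2-AS1, whose reads may be shared.

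The genes and lists were chosen with earlier results of these data known. Every gene of the set is given. From each further list the counts and the 4 tested genes with the smallest unadjusted p are given. One result under this rule is not reported here. The alternatives changed the pseudocount, the filter, the scaling, the variance trend and the replicate block, or left out each library in turn.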

Additional observations from a re-analysis of the deposited data

How the results depend on the processing

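No gene of the set passed the limma adjusted threshold under any of the 12 alternatives. Of the 29 tested genes, 12 kept their direction under all alternatives that gave a value: SLC2A1, SLC16A1, HK1, PFKP, ALDOC, ENO1, LDHA, VEGFA, NDRG1, BNIP3L, ANKRD37 and P4HA1. The cause of the turns below was not tested.

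TPM scaling shifted the median log2 difference over every tested gene to 0.17. Under it, log2 differences turned to 0.14 for HK2, 0.14 for GPI (0.135), 0.074 for PFKL, 0.17 for PFKM, 0.0044 for ALDOA, 0.00044 for TPI1, 0.096 for GAPDH, 0.0093 for PGK1, 0.18 for PGAM1, 0.17 for ENO2, 0.11 for PKM, 0.012 for PFKFB3, 0.085 for BNIP3 and 0.16 for P4HA2. After quantile normalization they turned to 0.027 for GPI, 0.019 for PFKM, 0.085 for GAPDH (0.0855), 0.059 for PGAM1, 0.028 for PKM and -0.026 for PDK3 (-0.0265).

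The median of the glycolytic enzymes was 0.096 with TPM and -0.036 after quantile normalization. That of the hypoxia-induced genes was 0.35 with TPM. With no filter it was 0.11 because ADM was added to the genes, and over the same 8 genes it stayed at 0.183.

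Leaving out each library in turn gave ranges of -0.20 to -0.10 for the median of the enzymes and 0.18 to 0.23 for that of the hypoxia-induced genes. For single genes that turned, the ranges were -0.22 to 0.14 (HK2), -0.37 to 0.29 (PGAM1), -0.041 to 0.063 (PDK3), -0.35 to 0.12 (PFKFB3), -0.37 to 0.28 (PFKM), -0.11 to 0.043 (ENO2), -0.040 to 0.23 (HIF1A), -0.37 to 0.28 (P4HA2), -0.17 to 0.39 (KDM3A), -0.33 to 0.25 (PFKL), -0.052 to 0.81 (BSG) and -0.59 to 0.045 (MPC1).

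In the whole table, 1 gene was called higher and 1 lower. The count of lower genes was 0 with a pseudocount of 0.1 or 0.01 and 2 with TPM or quantile normalization. With no filter 0 were higher and 0 lower, and without the trend 0 were higher. Leaving out a library gave 0 to 10 higher and 0 to 7 lower genes. With the replicate block 0 were higher and 0 lower. The numbers shared by the groups pair nothing in the labels, and the deviations of same-numbered libraries from their group means correlated at r = 0.0906 across genes, which are not independent replicates. Low depth limits the genes under the minimum of 1 FPKM.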
